A study of Rattus norvegicus with 6 samples.

Results

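The adhesion molecules examined here are 10 genes of the immunoglobulin and cadherin families, taken by symbol from the 30957 Ensembl rat genes of the deposited table. They are Vcam1, Icam1, Ncam1, L1cam, Nrcam, Mcam, Alcam, Cdh2, Cdh11 and Cdh19, and each matched 1 gene. They were measured by RNA-seq in Sprague-Dawley rats, in 3 sciatic nerves that had been crushed and in 3 from the uninjured side. The methods give adult males and collection at 4 days postinjury (dpi). No transgene or drug is stated, and the groups differ in the crush and in the side of the body. The crushed samples were proximal stumps, that is, the nerve on the spinal side of the crush. For the intact nerves no segment is stated. The labels give no time point and do not say whether a crushed and an intact nerve with the same number came from the same rat.

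Immunoglobulin adhesion molecules are membrane proteins with stacked immunoglobulin domains that bind partners on other cells. ICAM1 and VCAM1 are displayed on activated endothelium and other stromal cells, where leukocyte integrins dock on them before the cells leave the blood, and both genes are classical targets of NF-κB. NCAM1, L1CAM and NRCAM hold axons and Schwann cells to each other, and ALCAM and MCAM are found on neural, vascular and immune cells. Cadherins bind a like molecule on the neighbouring cell in the presence of calcium and are tied to actin through catenins. N-cadherin (Cdh2) joins Schwann cells to axons, Cdh11 marks mesenchymal cells and Cdh19 is a marker of the Schwann lineage.

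The counts on genes summed to between 24844371 and 27139360 per nerve. Several defining markers of the cell types of nerve tissue were at or near 0, and others were not. The Schwann cell genes Sox10, Mbp and S100b had at most 1, 1 and 3 counts in any nerve, and the leukocyte gene Ptprc and the macrophage gene Adgre1 had 0 counts in all 6. The endothelial gene Cldn5 had 0 counts and Cdh5 at most 5, whereas the proliferation gene Mki67 had between 37037 and 43837. Of the markers found, 6 of 11 for Schwann cells, 4 of 12 for macrophages and leukocytes and 3 of 7 for endothelium passed the expression filter used below. Among these were the myelinating Schwann cell gene Prx at between 590 and 690 counts, the monocyte gene Cd14 at between 49 and 84, and the endothelial receptor gene Tek at between 49 and 100. In bulk RNA, fewer cells of a type and less RNA per cell cannot be told apart.

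Promoters of 4 of the 10 genes were present in the RefSeq promoter table of the GRCr8 assembly, which covers 250 bases before and 50 after each transcription start. The 250 upstream bases of Icam1, Vcam1 and Alcam are shown, because Icam1 and Vcam1 are the leukocyte adhesion genes and Alcam is a gene of the same family with high counts in both groups. Capitals mark letters that match an NF-κB motif.
Icam1, chr8:27829595-27829844, plus strand: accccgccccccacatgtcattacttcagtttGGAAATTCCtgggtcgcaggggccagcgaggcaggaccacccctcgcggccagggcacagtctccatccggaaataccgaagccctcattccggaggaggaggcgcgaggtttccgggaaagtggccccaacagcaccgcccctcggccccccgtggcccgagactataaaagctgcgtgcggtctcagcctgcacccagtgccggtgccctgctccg
Vcam1, chr2:206742784-206743033, minus strand: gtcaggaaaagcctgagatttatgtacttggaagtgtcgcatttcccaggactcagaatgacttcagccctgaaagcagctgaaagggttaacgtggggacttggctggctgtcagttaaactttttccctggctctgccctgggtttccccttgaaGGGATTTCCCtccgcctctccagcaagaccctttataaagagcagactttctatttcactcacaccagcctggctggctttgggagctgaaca
Alcam, chr11:61805207-61805456, plus strand: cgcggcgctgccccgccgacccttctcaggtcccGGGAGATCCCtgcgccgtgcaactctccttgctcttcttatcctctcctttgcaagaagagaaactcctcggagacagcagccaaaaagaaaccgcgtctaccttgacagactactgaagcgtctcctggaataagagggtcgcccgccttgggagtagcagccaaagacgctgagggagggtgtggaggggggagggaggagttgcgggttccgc
The motifs searched on both strands were the NF-κB consensus GGGRNNYYCC, the shorter κB form GGAANTTCC and the AP-1 motif TGANTCA. R stands for A or G, Y for C or T and N for any base. Sites that depart from these letters were not marked. The NF-κB consensus was matched in the Vcam1 promoter by GGGATTTCCC, which spans positions -93 to -84 when counted from the start, and in the Alcam promoter by GGGAGATCCC at -216 to -207. The Icam1 promoter held the shorter form, GGAAATTCC, at -218 to -210, and no match to the consensus. Among all 33469 promoters of the table, 7.51% held the consensus, 0.872% the shorter form and 7.33% the AP-1 motif, and in 0.376% matches of the first pair overlapped. No AP-1 match was present in the 4 promoters, and Cdh19 held none of the motifs. A match of letters describes the window and does not show that a factor binds there.

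The 10 genes differed widely in level. Per length and averaged over the 6 nerves, Alcam was at 42.6 FPKM (counts divided by gene length and library total), Icam1 at 24.7, Ncam1 at 14.6, Cdh2 at 12.4 and Mcam at 1.66. The other genes lay far lower, with L1cam at 0.116, Vcam1 at 0.0636, Cdh11 at 0.0374, Nrcam at 0.0310 and Cdh19 at 0. Among the 12393 genes kept by the expression filter of edgeR, 81.7% had a lower mean FPKM than Alcam, 68.9% a lower one than Icam1 and 14.1% a lower one than Mcam. Of the 10 genes, 9 had a count in at least 1 nerve and 6 passed the filter, namely Icam1, Ncam1, L1cam, Mcam, Alcam and Cdh2. The order of the 4 highest genes was the same in every nerve. Within the intact group the levels of Icam1 and Ncam1 overlapped between nerves, from 16.2 to 18.8 FPKM for Icam1 and from 14.9 to 16.7 FPKM for Ncam1, and in the crushed group they did not.

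**Figure D1:**
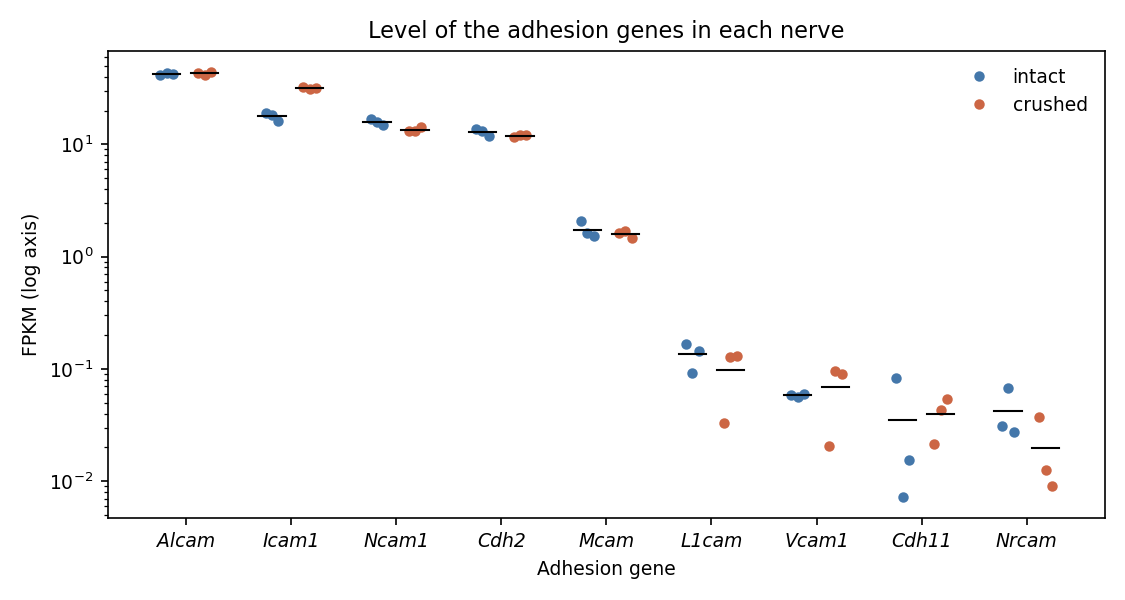
FPKM of each adhesion gene on a log axis, with 1 point per nerve (blue, 3 intact nerves, orange, 3 crushed nerves) and a line at the group mean. Icam1 was at 17.7 FPKM in intact and 31.7 FPKM in crushed nerves, whereas the 4 genes on the right lay under 0.17 FPKM in every nerve, and Cdh19, with 0 counts, cannot be drawn on a log axis.

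Icam1 rose in the crushed nerves, Ncam1 fell slightly, and the other 4 genes that passed the filter did not pass the test. Crushed and intact nerves were compared with edgeR's quasi-likelihood test over the 12393 genes, and a gene is said to have risen or fallen at an adjusted p under 0.05 (Benjamini-Hochberg). Among all genes tested, 1.47% rose and 1.65% fell by this rule, against 1 of 6 adhesion genes in each direction. The study's own limits ask for a change of more than 1 on the log2 scale in either direction and for p under 0.001, here read as unadjusted. They were met by 0.282% of all genes and by 0 of the 6 with edgeR, and by 0 with DESeq2 and limma as well. An unadjusted p under 0.05 was found for 2 of the 6 and for 16.2% of all genes tested. The median log2 fold change of the 6 genes was -0.14, against -0.0017 over all genes tested, with 2 of the 6 above 0.

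Icam1 encodes the ligand of the leukocyte integrins LFA-1 and Mac-1. Its gene (ENSRNOG00000020679) spans 22035256 to 22047059 of chromosome 8 in the coordinates of the table, and the build named in the submitters' processing notes is Rnor_6.0. Intact nerves 1, 2 and 3 held 1273, 1271 and 1061 Icam1 counts, and crushed nerves 1, 2 and 3 held 2306, 2209 and 2109. Every crushed nerve lay well above every intact nerve, and the crushed nerves were closer to each other than the intact ones. After scaling with TMM factors, Icam1 went from 47.1 ± 3.85 CPM (counts relative to library size) without the crush to 83.3 ± 1.70 CPM with it (SD, n = 3 nerves each). This is a 1.77-fold higher level with a 95% interval from 1.61-fold to 1.94-fold, or a log2 fold change of 0.82 with an SE of 0.0615 (edgeR, adjusted p = 3.52e-05). Separation of the groups without overlap was seen in 23.0% of all genes tested, and in 2 of the 6 adhesion genes, Icam1 and Ncam1.

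Of the genes next to Icam1 on the chromosome, only Mrpl4 passed the filter, and it was not called. Icam4 and Icam5, paralogs of Icam1 that follow it in the table's coordinates, had at most 3 and 4 counts in any nerve. Mrpl4, on its other side, was tested at a log2 fold change of -0.12 (edgeR, adjusted p = 0.569). Of the 12392 other genes tested, those whose log2 CPM followed Icam1 most closely over the 6 nerves were Cxcl16, Stat3 and Mnda, with Pearson's r of 0.998, 0.996 and 0.994. All of them rose, by log2 fold changes of 1.38, 0.37 and 0.55 (adjusted p = 2.56e-06, 0.000421 and 0.00189 from edgeR). These r values are a description over 6 nerves that fall into 2 groups, and any gene that separates the groups cleanly has a high r.

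Vcam1 encodes the ligand of integrin α4β1 and spans 219071193 to 219097619 of chromosome 2. Each of the 3 intact nerves held 8 Vcam1 counts, and crushed nerves 1, 2 and 3 held 3, 14 and 12. The groups overlapped, since crushed nerve 1 lay below and crushed nerves 2 and 3 above the intact nerves. Vcam1 was too low for the expression filter. In the same test on all 17425 genes with a count, its log2 fold change was 0.22, with a 95% interval from -0.90 to 1.34 (adjusted p = 0.881 from edgeR). An increase as large as that of Icam1 lies inside this interval, so that at this depth neither such an increase nor its absence was detectable. Per length, the mean level of Icam1 was 304-fold that of Vcam1 in intact and 459-fold in crushed nerves. The genes whose pattern was most like that of Vcam1 were Vwa8, Sass6 and 7SK, with Pearson's r between 0.977 and 0.989 over 6 nerves, and none of them passed the test. With so few counts, these r values are no finding.

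Among the neural adhesion genes, taken here as all members but Icam1 and Vcam1, Ncam1 was the one that passed the test. The group so named includes Mcam, Alcam and Cdh11, which are not confined to neural cells. Ncam1 encodes the neural cell adhesion molecule of axons and of Schwann cells that do not form myelin, and spans 53839098 to 53901358 of chromosome 8. Intact nerves 1, 2 and 3 held 2489, 2429 and 2167 Ncam1 counts, and crushed nerves 1, 2 and 3 held 2094, 2068 and 2064. All crushed nerves lay below all intact nerves, by a small margin in the case of intact nerve 3. The level fell from 92.6 ± 5.47 to 78.4 ± 3.45 CPM (SD, n = 3 nerves each). On the log2 scale the change was -0.24 with an SE of 0.0555 and a 95% interval from -0.36 to -0.12 (edgeR, adjusted p = 0.0438). This call was lost in 10 of 12 alternative analyses, although the log2 fold change stayed between -0.28 and -0.19. The adjusted p was 0.0734, 0.115, 0.186, 0.193 and 0.0606 in turn without intact nerve 1, intact nerve 2 and crushed nerves 1, 2 and 3 (edgeR).

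Alcam, Cdh2 and Mcam were measured with enough counts to bound their difference. Alcam, whose product binds CD6 on T cells and ALCAM itself on neighbouring cells, had between 3024 and 3256 counts without and between 3151 and 3382 counts with the crush. Its difference was 0.0073 on the log2 scale, with a 95% interval from -0.087 to 0.10 (adjusted p = 0.954 from edgeR), and the upper end of that interval is a 1.07-fold higher level. Intact nerves 1, 2 and 3 held 1509, 1502 and 1286 Cdh2 counts, and crushed nerves 1, 2 and 3 held 1357, 1407 and 1316. In CPM, intact nerve 3 was within the range of the crushed nerves, and the log2 fold change was -0.13 with a 95% interval from -0.26 to 0.0040 (adjusted p = 0.326). Mcam, found on vascular cells and pericytes, had between 110 and 155 counts in intact and between 105 and 132 in crushed nerves, with a log2 fold change of -0.15 and a 95% interval from -0.47 to 0.17 (adjusted p = 0.661). The interval of each of these genes lies below that of Icam1.

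The remaining neural genes were hardly detected. For L1cam, an adhesion molecule of axons and Schwann cells, intact nerves 1, 2 and 3 held 33, 19 and 28 counts and crushed nerves 1, 2 and 3 held 7, 27 and 25. Crushed nerve 1 stood apart from the other nerves, and the log2 fold change of -0.49 (95% interval from -1.40 to 0.42, adjusted p = 0.605 from edgeR) shrank to -0.073 without it. For Nrcam, an L1 family member of the nodes of Ranvier, the counts were 7, 16 and 6 in intact and 9, 3 and 2 in crushed nerves 1, 2 and 3. The groups overlapped, and without the filter the log2 fold change was -1.08 (95% interval from -2.39 to 0.22, adjusted p = 0.508 from edgeR). It was -0.55 without intact nerve 2 and -1.93 without crushed nerve 1. For Cdh11 they were 11, 1 and 2 in intact and 3, 6 and 7 in crushed nerves 1, 2 and 3, again with overlap, and the log2 fold change was 0.14 with a 95% interval from -1.51 to 1.78 (adjusted p = 0.963). Cdh19 had 0 counts in all 6 nerves, which at a floor of 3 counts allows a level of up to between 0.110 and 0.121 CPM per nerve (counting error only).

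**Figure D2:**
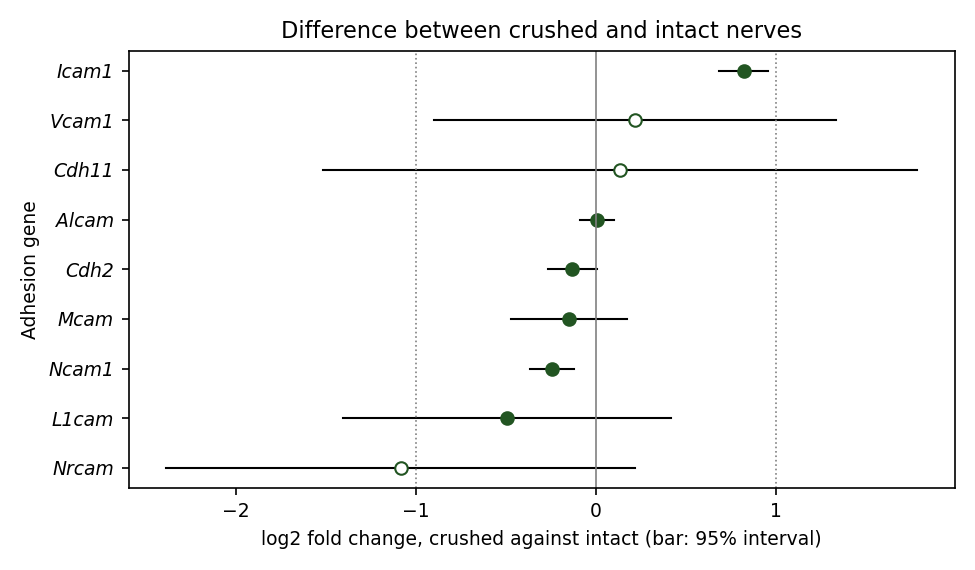
Log2 fold change of 9 adhesion genes between 3 crushed and 3 intact nerves, with 95% intervals from edgeR. Filled points passed the expression filter, open points come from the test without it, and dotted lines mark the study's limit of 1 in either direction. Icam1 is at 0.82 (0.69 to 0.96) and the intervals of Alcam, Cdh2, Mcam and Ncam1 lie below it, while those of Vcam1, Cdh11, L1cam and Nrcam are wide.

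Leukocyte and neural adhesion genes were also compared within each nerve, which does not depend on how libraries are scaled. The ratio of Icam1 to Ncam1 FPKM in nerves 1, 2 and 3 was 1.13, 1.16 and 1.08 without the crush and 2.43, 2.36 and 2.26 with it. The groups did not overlap, with means of 1.12 ± 0.0377 and 2.35 ± 0.0881 (SD, n = 3 nerves each). The mean ratio of Icam1 to Cdh2 was 1.38 ± 0.0190 in intact and 2.67 ± 0.110 in crushed nerves, and that of Icam1 to Alcam 0.420 ± 0.0388 and 0.739 ± 0.0120 (SD, n = 3 nerves each). Icam1 made up between 18.5% and 20.3% of the summed FPKM of the 10 genes in intact nerves and between 30.7% and 31.5% in crushed nerves. The share of Ncam1 was between 17.1% and 18.0% in intact and between 12.9% and 13.6% in crushed nerves. These ratios and shares are a description of the genes chosen, and no test was applied to them.

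**Figure D3:**
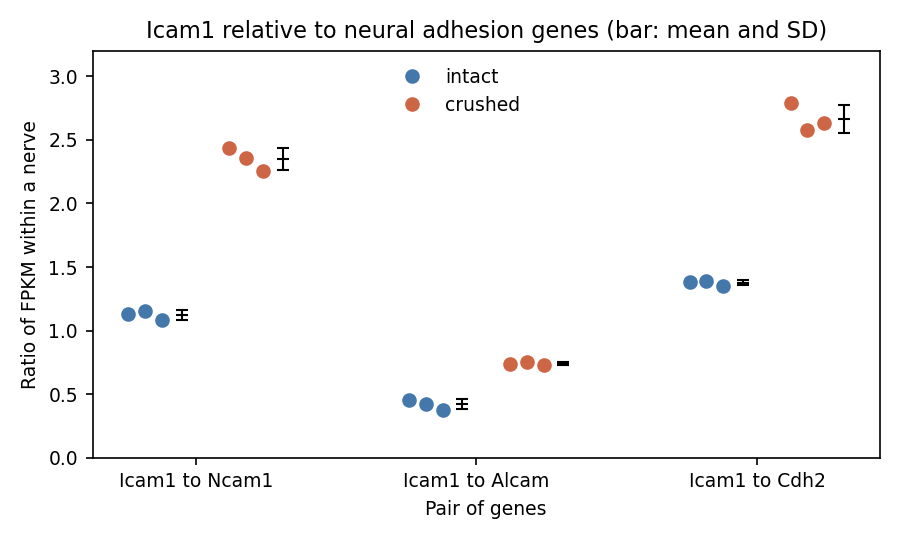
Ratio of the FPKM of Icam1 to that of Ncam1, Alcam and Cdh2 within each nerve, with 1 point per nerve (blue, intact, orange, crushed) and the mean and SD of 3 nerves in black. For each pair the crushed nerves lie above the intact nerves, with mean ratios of 2.35 against 1.12 to Ncam1, 0.739 against 0.420 to Alcam and 2.67 against 1.38 to Cdh2.

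When Vcam1 and Icam1 were averaged on the log2 CPM scale and set against the mean of the 5 neural genes that passed the filter, the difference in nerves 1, 2 and 3 was -2.45, -2.24 and -2.35 without the crush and -2.13, -1.51 and -1.53 with it. The crushed nerves lay above the intact nerves by 0.63 on average, with an SD of 0.103 in intact and 0.350 in crushed nerves. Crushed nerve 1, with 3 counts of Vcam1, lay close to the intact nerves on this scale. With log2(CPM + 1) it was at -1.07, and the intact nerves were between -1.66 and -1.53. With Icam1 alone in place of the pair, the difference between the groups was 1.06.

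Most transcripts of the leukocyte integrins that ICAM1 and VCAM1 bind were at or near 0 counts, but not all leukocyte ligands were. Of 10 integrin and leukocyte ligand genes found in the table, 5 had at most 3 counts in every nerve, 3 passed the filter and 0 rose or fell with edgeR, with 1 at an unadjusted p under 0.05. Itgal, the α chain of LFA-1, had 0 counts, Itgb2, the β chain of LFA-1 and Mac-1, at most 3, Itgam, the α chain of Mac-1, at most 8, and Itga4, the α chain of the VCAM1 receptor, at most 1. Itgb1, the β1 chain shared by many integrins, was far more abundant, with between 423 and 520 FPKM. Its difference of 0.17 on the log2 scale did not pass the test (edgeR, adjusted p = 0.0513), but did in 5 of 12 alternatives, including DESeq2 (adjusted p = 0.0136) and edgeR without intact nerve 1 (adjusted p = 0.0221) or intact nerve 2 (adjusted p = 0.0461). The other genes of this list that passed the filter were Itgax, the α chain of another leukocyte integrin that binds ICAM1, at between 32 and 65 counts, and Spn, the leukocyte sialoglycoprotein CD43, at between 3858 and 4370. Their log2 fold changes were -0.022 and -0.017 (edgeR, adjusted p = 0.979 and 0.884). Itgb1, Itgax and Spn were named after their values were seen. The levels of the 12 macrophage and leukocyte markers summed to between 4.96 and 6.64 CPM in intact and between 4.39 and 6.26 CPM in crushed nerves, and 8 of the 12 had at most 3 counts in every nerve. The ranges of this sum overlapped between the groups, and its relation to the rise of Icam1 was not tested. Fcgr2b, at between 10 and 30 counts and named after its values were seen, had a log2 fold change of -1.22. It did not pass the test (edgeR, adjusted p = 0.0579). The other markers of this list that were tested, Cd68, Csf1r and Cd14, were at 0.21, 0.060 and -0.043. The 7 endothelial markers found summed to between 4.66 and 5.53 CPM in intact and between 3.77 and 5.08 CPM in crushed nerves. Those tested differed in direction and did not pass the test, with Tek at -0.66, Kdr at 0.42 and Vwf at 0.49 on the log2 scale.

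Other genes of leukocyte adhesion to endothelium were mostly silent. Of 18 rows found for 17 such symbols, 11 had at most 3 counts in every nerve, 3 passed the filter and 0 rose or fell with edgeR, also when an unadjusted p under 0.05 was used. The endothelial selectin genes Sele and Selp, which slow leukocytes on the vessel wall, had at most 1 and 0 counts. The 3 genes tested, Jam2, Jam3 and Selplg, had a median log2 fold change of 0.12 but differed in direction. Jam2 was at 0.12, Jam3 at 0.14 and Selplg, with between 7 and 20 counts, at -0.70.

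Most other neural adhesion genes and cadherins were low or silent as well. Of 25 further neural immunoglobulin genes found, 12 had 0 counts in all nerves and 7 passed the filter, of which 0 rose or fell with edgeR and 3 had an unadjusted p under 0.05, against 16.2% of all genes. Their median log2 fold change was -0.15, against -0.0017 over all genes. Thy1, a small membrane protein of neurons and fibroblasts that was named after its values were seen, had 124 ± 4.61 CPM in intact and 106 ± 7.76 CPM in crushed nerves (SD, n = 3 nerves each), a difference of -0.23 on the log2 scale that did not pass the test (edgeR, adjusted p = 0.0552) but did with DESeq2 (adjusted p = 0.0134). Of 19 other cadherins, 10 had 0 counts in all nerves and 4 passed the filter, and 0 of these rose or fell or had an unadjusted p under 0.05. P-cadherin (Cdh3), at between 62.2 and 70.7 FPKM, was higher than Cdh2 in every nerve, and E-cadherin (Cdh1) had at most 7 counts.

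Genes whose products link adhesion molecules to the cytoskeleton were abundant. Of 15 rows found for 14 such symbols, 10 passed the filter, 1 rose (1.47% of all genes) and 0 fell (1.65% of all genes). An unadjusted p under 0.05 was found for 7 (16.2% of all genes), and the median log2 fold change was -0.067. Ctnnd2, a catenin that binds the cadherin tail, rose from 48.8 ± 1.93 to 57.7 ± 2.34 CPM (SD, n = 3 nerves each), by 0.24 on the log2 scale (edgeR, adjusted p = 0.0409). This call was lost in 8 of 12 alternatives, with an adjusted p between 0.0911 and 0.152 when any nerve other than intact nerve 1 was left out. Ctnna1, the α-catenin that ties cadherins to actin, was singled out after its value was seen. Its change was -0.15 on the log2 scale (edgeR, SE 0.0365) and did not pass the limit on the adjusted p, but did with DESeq2 (adjusted p = 0.0295). Ctnnb1, which encodes β-catenin and was also named after its value was seen, went the other way. It was at 0.15 on the log2 scale and did not pass the test (edgeR, adjusted p = 0.0639).

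**Figure D4:**
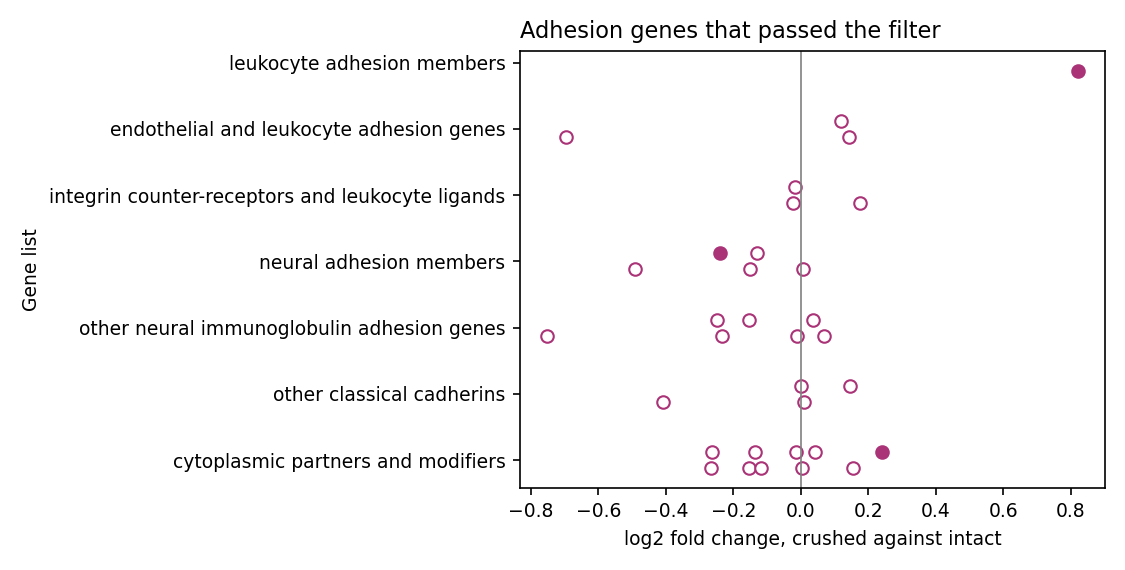
Log2 fold change between 3 crushed and 3 intact nerves for the adhesion genes and partners that passed the expression filter, with 1 point per gene and 1 row per gene list. Filled points have an adjusted p under 0.05 from edgeR. These are Icam1 (0.82), Ncam1 (-0.24) and Ctnnd2 (0.24), and the other points lie between -0.75 and 0.17.

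Several markers of mesenchymal cells were lower in the crushed nerves, though not all. Of 4 fibroblast markers tested, 3 fell in crushed nerves and 0 rose, where 1.65% of all genes tested fell and 1.47% rose. The 3 included Fn1, which encodes fibronectin, by -0.59 on the log2 scale (edgeR, adjusted p = 3.52e-05), and Col1a1, a chain of collagen I, by -0.69 (adjusted p = 0.000662). The third was Col3a1, by -1.76 (adjusted p = 0.0268), at between 3 and 23 counts. Its call was lost in 8 of 11 alternatives, with an adjusted p between 0.0553 and 0.104 when any nerve other than crushed nerve 1 was left out (edgeR). Pdgfra, the fourth fibroblast marker tested and named after its values were seen, had 46.6 ± 3.33 CPM in intact and 53.3 ± 2.78 CPM in crushed nerves (SD, n = 3 nerves each), a difference of 0.19 on the log2 scale that did not pass the test (edgeR, adjusted p = 0.166). The 8 fibroblast markers summed to between 1270 and 1398 CPM in intact and between 890 and 912 CPM in crushed nerves, most of it Fn1, while Col1a2, Dcn, Lum and Postn were at 0 counts. Of 5 perineurial and pericyte markers tested, Pdgfrb and Cspg4 fell, by -0.77 and -0.35 on the log2 scale (edgeR, adjusted p = 0.00106 and 0.00103). Of 6 Schwann cell markers tested, Erbb3, a neuregulin receptor, fell by 0.59 on the log2 scale (edgeR, adjusted p = 0.0222). It lost its call in 8 of 12 alternatives, with an adjusted p between 0.0521 and 0.108 when any nerve other than intact nerve 2 was left out (edgeR). Of 6 proliferation markers, 0 rose or fell with edgeR, and 1 had an unadjusted p under 0.05. The part of these shifts in the changes of Icam1 and Ncam1 was not tested.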

How the data were processed

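RNA-seq was performed on 6 rat sciatic nerves. The authors deposited 1 table with raw read counts per Ensembl gene and nerve, and FPKM values (divided by gene length and library total) derived from them. The submitters' processing notes name HISAT2, StringTie 1.3.0 and the build Rnor_6.0, without their roles. The labels name a column kit for RNA, whereas the paper's methods name TRIzol, rRNA removal and RNase R, which digests linear RNA. No value column was left unmatched (0 columns).

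Counts were fitted with edgeR 4.0.16 (quasi-likelihood test, TMM factors, expression filter) in R 4.3.3 over all 6 nerves, without a replicate block, and p-values were adjusted over the 12393 genes tested. Genes below the filter were read from the same test on the 17425 genes with a count. Standard errors and 95% intervals came from the test statistic. Log2 CPM used a prior count of 0.5. Alternatives were a replicate block, DESeq2 1.42.0, library totals without TMM factors, no filter, limma 3.58.1 on log2(FPKM + 0.1) or log2(FPKM + 1), and each nerve left out in turn. Icam1 alone was added after the values were seen. In a test of the fit on simulated counts, 85 of 97 genes changed by 1 on the log2 scale were called. All 100 genes changed by 2 were called, as were 22 of 12104 unchanged genes. Changes as small as that of Ncam1 were not simulated. Replicates of a group differed by more than counting noise (chi-square divided by its degrees of freedom was 3.38 to 12.3). The paper describes a crush of the left nerve and counts 3 nerves per group, but does not state the number of rats. The p-values measure the spread between these samples.

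All 10 members are named, and of the other lists the genes with an adjusted p under 0.05 (at most 4 a direction), defining markers, and the 3 genes most like Icam1 or Vcam1 over the nerves. Members and lists were chosen with earlier results of these data known. Pecam1, Itgad, Cntnap2, St8sia4 and Pou3f1 were not analysed here.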

Additional observations from a re-analysis of the deposited data

How the results depend on the processing

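One adhesion gene rose (Icam1) in all 12 alternatives, with a log2 fold change between 0.76 and 0.88 and an adjusted p of at most 0.000594, and 0 met the study's limits in any of them. The number that fell was 1 (Ncam1). It was 0 with the replicate block, without the filter, with library totals alone and with limma on log2(FPKM + 0.1) or log2(FPKM + 1), and between 0 and 1 with 1 nerve left out, where it was 1 only without intact nerve 3. The adjusted p of Ncam1 lay between 0.0111 (DESeq2, where it fell) and 0.193 over all 12 settings. The cause was not tested. The labels share the numbers 1 to 3 between groups, but same-numbered nerves did not deviate together (correlations of -0.0032, -0.013 and 0.063 over the genes tested). Of the 6 nerves, 2 correlated best with the nerve of their own number. These values bear on the numbering of the labels only. The paper calls the intact nerves contralateral, without saying which nerves share a rat, so the paired fit is kept as an alternative. With the replicate block the log2 fold change of Ncam1 was -0.24 (edgeR, adjusted p = 0.0865), and the blocked fit changed no other call among the 10 genes. Among the other genes named, the block ended the calls of Ctnnd2, Col3a1 and Erbb3 (adjusted p = 0.0646, 0.0597 and 0.0525) and added Thy1 (adjusted p = 0.0349).

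The difference between leukocyte and neural adhesion genes was 1.06 with Icam1 alone and between 0.52 and 0.83 with 1 nerve left out, against 0.63. It was 0.59 with log2(FPKM + 0.1), 0.57 with log2(CPM + 1) and 0.74 when the neural side was Ncam1, L1cam and Cdh2 only. Leaving out single nerves turned the sign of 4 genes that were not called, Vcam1, Cdh11, Mcam and Alcam, and not that of L1cam, Nrcam and Cdh2. Vcam1 ranged from -0.12 (without crushed nerve 2) to 0.66, and was -0.0089 without crushed nerve 3. Cdh11 ranged from -0.35 to 1.71, Mcam from -0.24 to 0.0095 and Alcam from -0.012 to 0.035. Nrcam was -0.031 with limma on log2(FPKM + 1). Depth limits Vcam1, Nrcam, Cdh11 and Cdh19, which had at most 16 counts in any nerve.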
